A study of Homo sapiens with 24 samples.

Results

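The genes of tissue factor and plasminogen activation followed here are 9 of the 34229 gene symbols in the files: F3 (tissue factor), TFPI, TFPI2, THBD (thrombomodulin), F2R (the thrombin receptor PAR1), PLAU (urokinase), PLAUR (the urokinase receptor), PLAT (tissue plasminogen activator) and SERPINE2 (protease nexin-1). They were taken by symbol from every group. The members were chosen by name with earlier results of these data known, the fall of F3 in LN18 EGCG+HC cells among them, so the levels of EGCG+HC cells are given below as a description with no test. F3 fell with EGCG in LN18 cells and with HC in 1321N1 cells, and it was lowest relative to control in LN18 cells given both. PLAU fell with EGCG and rose with HC in LN18 cells, PLAUR rose and F2R fell with HC in 1321N1 cells, and SERPINE2 rose with HC in both lines.

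Tissue factor is the membrane receptor of factor VII, and the pair starts the clotting cascade that ends in thrombin. TFPI blocks that start, thrombomodulin turns bound thrombin into an activator of protein C, and PAR1 is the receptor that thrombin cleaves on cells. Urokinase and tissue plasminogen activator make plasmin, a protease that dissolves fibrin and degrades matrix, with urokinase held on the cell surface by its receptor. Protease nexin-1 inhibits thrombin and both plasminogen activators, and TFPI2 inhibits plasmin. Gliomas are known for high tissue factor and for clots in tumour vessels, and urokinase and its receptor are known for their part in glioma invasion.

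RNA was sequenced from 2 established human glioma lines, LN18 (labelled grade IV) and 1321N1 (labelled grade II), after 24 h with EGCG+HC, EGCG, HC or vehicle, with 3 libraries per line and treatment (24 in all) that the labels call independent tests. EGCG is the main catechin of green tea and HC (hydroxychavicol) a phenol of betel leaf. Both lines received EGCG at 50 µg/ml, while HC was given at 10 µg/ml to LN18 and at 20 µg/ml to 1321N1, alone and in EGCG+HC. Per the study's methods the controls had ethanol, the solvent of HC, while EGCG was dissolved in medium, and LN18 was grown in 5% and 1321N1 in 10% serum. Grade and serum therefore cannot be told apart from the line, and responses to HC and EGCG+HC are given side by side without a test between lines. Each line derives from 1 tumour.

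The unit is RPKM, reads per kilobase of gene, scaled to the depth of the library, which allows levels of different genes to be set side by side. The libraries held 13.6 to 32.3 M counted reads (median 19.1 M), as recovered from the steps between low values. The defining glial markers were absent or near absent: GFAP reached at most 0.352 RPKM in LN18 and 0.241 in 1321N1, S100B at most 0.17 and 0.121, and SOX2 was listed at 0 in both, while VIM and CD44 (lowest values 170 and 76.3 RPKM in LN18, 356 and 40.4 in 1321N1) were abundant. Endothelium also makes TFPI, thrombomodulin and tissue plasminogen activator. The summed level of its 4 markers listed in either line was at most 0.708 RPKM in LN18, where CDH5 was not listed, and 0.393 in 1321N1. That of 2 listed platelet markers was at most 1.484 and 1.314. CD68, a myeloid marker that many cultured lines express, was at 17.0 RPKM or more in every library. The other blood and myeloid markers were low: PTPRC reached at most 0.223 RPKM in LN18 and 0.5 in 1321N1, ITGAM 0.25 and 0.809, and CD14 3.52 and 3.07. HBB reached at most 0.322 RPKM in LN18 and was not listed in 1321N1. In 2 of the 1321N1 EGCG libraries (replicates 2 and 3), 263 genes above 1 RPKM in replicate 1 were listed at 0, and 0 of the 9 genes were among them. The values are averages over a culture, so that fewer expressing cells and less RNA per cell cannot be told apart.

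The start of F3 is known from other cells as a site of control by AP-1, NF-kB, EGR1 and SP1. The 250 bases before the RefSeq gene start (promoter table on GRCh38.p14) were found for 6 of the 9 genes, and each matched 1 place in GRCh37. THBD, PLAT and F2R had no entry. The windows of F3 and TFPI2 adjoin the outermost start of the gene in the GENCODE annotation. Those of TFPI, SERPINE2, PLAU and PLAUR lie inside the annotated gene, so they describe the RefSeq start and no start further out. The 2 of the 6 that hold the AP-1 letters TGACTCA on either strand, F3 and PLAUR, are shown because they responded in opposite directions in 1321N1 cells given HC. The F3 window is chr1:95007316-95007565 and the PLAUR window chr19:44174322-44174571, both on the minus strand of GRCh37 and written 5′ to 3′ towards the gene, with AP-1 and NF-kB-like letters (GGANTTTCC) in capitals.
F3: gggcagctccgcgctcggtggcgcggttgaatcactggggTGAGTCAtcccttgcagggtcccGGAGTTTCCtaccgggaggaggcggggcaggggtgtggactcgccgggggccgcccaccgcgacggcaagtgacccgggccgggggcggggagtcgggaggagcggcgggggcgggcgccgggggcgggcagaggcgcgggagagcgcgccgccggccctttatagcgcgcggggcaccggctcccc
PLAUR: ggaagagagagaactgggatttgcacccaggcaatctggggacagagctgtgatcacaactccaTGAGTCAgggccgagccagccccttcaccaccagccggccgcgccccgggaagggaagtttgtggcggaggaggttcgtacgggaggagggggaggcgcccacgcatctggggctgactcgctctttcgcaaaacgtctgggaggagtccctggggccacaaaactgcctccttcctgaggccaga
The AP-1 letters lay at −210 to −204 from the F3 start and at −186 to −180 from the PLAUR start, on the strand opposite to the gene in both. AP-1 letters occurred in 4.16% of 27305 promoter windows of this length. F3 also held the NF-kB-like letters (1.47% of windows), EGR1 letters GCGNGGGCG (8.25%) and 4 copies of the SP1 letters GGGCGG (42.3%), 1 of them overlapping the EGR1 match. TFPI2 held EGR1 and SP1 letters, 1 SP1 copy overlapping the EGR1 match, SERPINE2 held SP1 letters and PLAUR EGR1 letters. The windows of TFPI and PLAU at these RefSeq starts held none of the 4. The TEAD letters GGAATG (11.9%) were in none of the 6 windows. These matches describe letters and not binding.

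**Figure D1:**
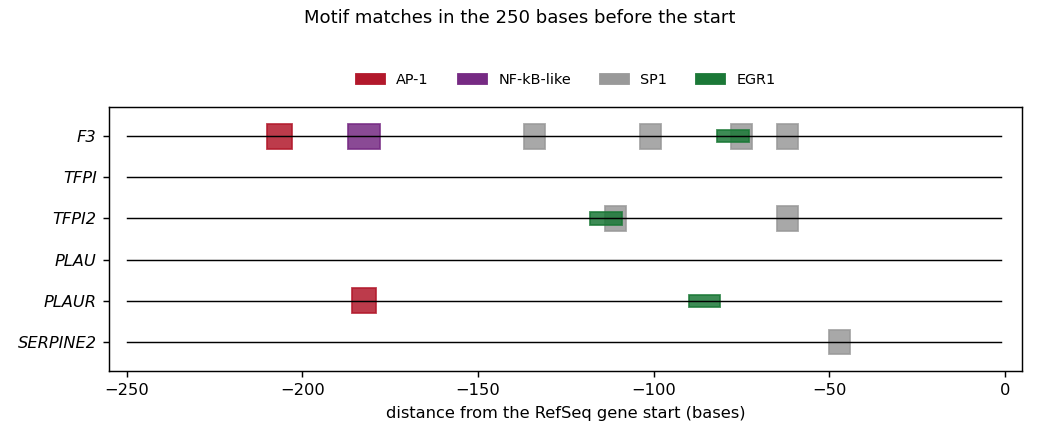
Letter matches of 4 motifs in the 250 bases before the RefSeq gene start of the 6 genes with a promoter entry. The horizontal axis is the distance from that start in bases, and each coloured box is a match on either strand. AP-1 boxes stand in F3 and PLAUR, the NF-kB-like box in F3, and TFPI and PLAU have no box.

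A gene was called when its limma p, adjusted by Benjamini-Hochberg over all genes tested, was at most 0.05 and the fold change on log2(RPKM + 1) was at least 1.5. The single treatments are tested, but they share their control libraries with EGCG+HC, and which of their results were also known when the list was made is not recorded, so their p-values are no independent evidence for the choice of these genes. With EGCG, 2 of 9 genes fell in LN18 cells and 0 rose, where 18.8% of 13157 genes were called (9.7% lower, 9.11% higher). With HC, 4 of 9 rose in LN18 cells and 0 fell, where 11.7% of 13392 genes were called (9.48% higher, 2.26% lower). In 1321N1 cells EGCG gave 0 calls among the 7 genes above the low-value filter, where 4.97% of 13255 genes were called (3.14% higher, 1.83% lower). Of these 7, 4 had an unadjusted p under 0.05 in limma, the only tool run. An adjusted p of at most 0.05 was found for 2 of the 7 and for 40.1% of all genes tested. These 2 were F3 and PLAU. Adding 1 RPKM shrinks the fold change of low genes, and PLAU had a 1.59-fold lower mean there. HC called 6 of 8 genes in 1321N1 cells, 4 higher and 2 lower, where 36.6% of 13408 genes were called (18.8% higher, 17.7% lower). TFPI passed the filter there only through the HC group, where it was high, and without it 5 of 7 genes were called, 3 higher and 2 lower. The median log2 change of the genes that passed the filter was 0.09 with EGCG and 0.38 with HC in LN18 cells, against 0.03 and 0.10 for all genes tested. In 1321N1 cells the medians were −0.07 with EGCG and, without TFPI, −0.16 with HC, against 0.10 and −0.01 for all genes.

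**Figure D2:**
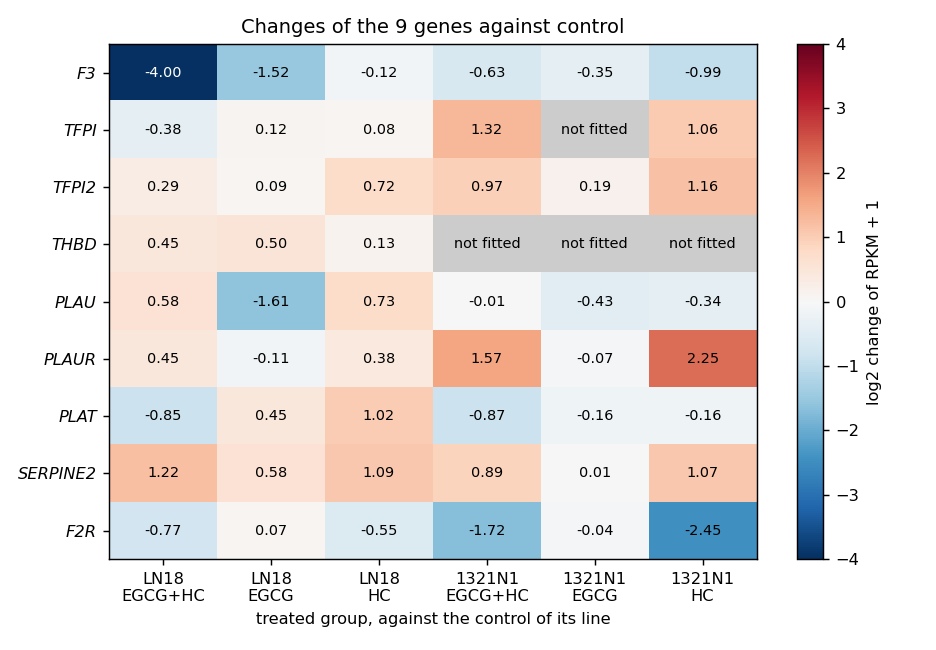
Log2 change of RPKM + 1 against the control of the same line for the 9 genes (rows) in 6 treated groups (columns, 3 libraries each), red for higher and blue for lower, grey where the gene was under the filter. The value of −4.003 for F3 in LN18 EGCG+HC is the lowest, while in 1321N1 the HC column holds both the highest value (PLAUR, 2.25) and the lowest (F2R, −2.45).

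F3 encodes the receptor that starts clotting. In LN18 the level was 22.3, 20.9 and 20.6 RPKM in EGCG+HC libraries, 125, 124 and 122 RPKM in EGCG libraries, 318, 331 and 335 RPKM in HC libraries, and 341, 364 and 362 RPKM in control libraries. No group overlapped another, and tissue factor was thus among the abundant transcripts of untreated LN18 cells, at place 69 of 26303 genes listed there, while in EGCG+HC cells it stood at place 2432 of 29449. F3 fell with EGCG by a log2 change of −1.52 (SE 0.03, limma adjusted p = 7.84e-07), a 2.88-fold lower mean, and this was the 52nd lowest change of the 13157 genes. With HC the change was −0.12 (SE 0.05, adjusted p = 0.076), which did not pass. EGCG+HC cells had a 16.7-fold lower mean than control cells, a log2 change of −4.003 (SE 0.04) and the lowest of the 13807 genes fitted; against EGCG it was −2.48 (SE 0.03) and against HC −3.89 (SE 0.04).

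In 1321N1 cells F3 was 13.8, 13.6 and 14.03 RPKM with EGCG+HC, 16.3, 17.5 and 17.0 RPKM with EGCG, 9.65, 10.6 and 11.2 RPKM with HC, and 20.4, 23.4 and 21.8 RPKM in control. The order differed from that of LN18, with HC lowest and no overlap between groups. F3 fell with HC by a log2 change of −0.99 (SE 0.07, limma adjusted p = 7.77e-06), a 2.09-fold lower mean. With EGCG it was lower in every library, by −0.35 (SE 0.06, adjusted p = 0.0055), under the limit on the fold change. The EGCG+HC mean was 1.58-fold lower than control (log2 change −0.63, SE 0.05) and 1.32-fold higher than HC (0.37, SE 0.05).

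Untreated LN18 cells had 16.3 times the F3 of untreated 1321N1 cells (log2 difference 3.97, SE 0.05, limma adjusted p = 5.69e-09), and over the 8 groups F3 ran from LN18 control down to 1321N1 HC. Neighbours in that order were separated except for 1321N1 control and LN18 EGCG+HC, whose libraries overlapped (20.4 to 23.4 and 20.6 to 22.3 RPKM). F3 fell further in LN18 than in 1321N1 with the same dose of EGCG, with a difference between the log2 responses of −1.17 (SE 0.07, adjusted p = 3.29e-07). In that test of LN18 minus 1321N1 responses 3 of 9 genes were called, 1 higher and 2 lower, where 17% of 13444 genes were called (5.59% higher, 11.4% lower). TFPI and THBD passed the filter there only through LN18, and neither was called.

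**Figure D3:**
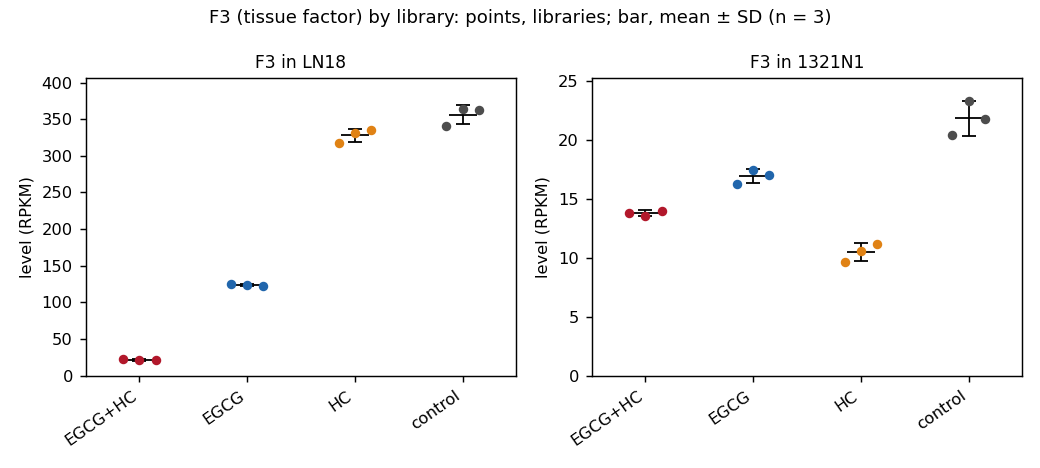
F3 in RPKM (vertical axes, each from 0) in LN18 (left) and 1321N1 (right) by treatment; points are libraries and bars the mean ± SD of 3. In LN18 the level is near 21 RPKM with EGCG+HC and near 356 RPKM in control, and in 1321N1 all values lie between 9.65 and 23.4 RPKM, with HC lowest.

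TFPI, the inhibitor of the tissue factor complex, was low in 1321N1 and far higher in LN18. In 1321N1 it was 2.70, 2.64 and 2.86 RPKM with EGCG+HC, 0.841, 0.907 and 0.895 RPKM with EGCG, 2.05, 2.10 and 2.16 RPKM with HC, and 0.506, 0.486 and 0.489 RPKM in control. No group overlapped another. The HC mean was 4.27-fold higher than that of control, a log2 change of 1.06 (SE 0.07) given as a description because only the HC group averaged above the filter, and the EGCG+HC mean was 5.53-fold that of control. The EGCG comparison lay under the filter, with a 1.78-fold higher mean and no test. Adding 1 RPKM shrinks the log2 change of so low a gene, and about 96 to 108 reads lay behind each control value.

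In LN18 TFPI was 5.21, 5.81 and 5.65 RPKM with EGCG+HC, 8.36, 8.16 and 8.37 RPKM with EGCG, 7.85, 7.64 and 8.68 RPKM with HC, and 7.32, 7.82 and 7.47 RPKM in control. EGCG (log2 change 0.12, SE 0.04) and HC (0.08, SE 0.06) did not pass the limits, and EGCG+HC libraries lay under all others (−0.38, SE 0.05, against control). LN18 controls held 15.3 times the TFPI of 1321N1 controls (log2 difference 2.51, SE 0.05), a description for the same reason, since only LN18 averaged above the filter. The ratio of F3 to TFPI was nevertheless near equal in untreated cells, at 47.3 ± 1.12 in LN18 and 44.3 ± 3.87 in 1321N1 (SD, n = 3 each). With EGCG+HC the ratio was 3.84 ± 0.381 in LN18 and 5.06 ± 0.13 in 1321N1, with EGCG 14.9 ± 0.271 and 19.2 ± 0.194, and with HC 40.8 ± 2.35 and 4.97 ± 0.236. The low ratios went with lower F3 in LN18 and with lower F3 and higher TFPI in 1321N1.

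TFPI2, the plasmin inhibitor, rose with HC in both lines. It was 13.1, 12.4 and 12.1 RPKM with EGCG+HC, 10.3, 10.8 and 11.1 RPKM with EGCG, 17.6, 17.5 and 16.7 RPKM with HC, and 10.3, 9.72 and 10.1 RPKM in control LN18 cells. HC libraries stood apart from all others (log2 change 0.72, SE 0.04, limma adjusted p = 2.18e-05), and EGCG overlapped control. In 1321N1 cells the values were 22.1, 22.3 and 23.3 RPKM with EGCG+HC, 12.0, 13.1 and 13.04 RPKM with EGCG, 25.2, 26.7 and 25.9 RPKM with HC, and 9.99, 12.1 and 11.2 RPKM in control. The HC rise was 1.16 (SE 0.07, adjusted p = 3.24e-06), while EGCG (0.19, SE 0.07) did not pass. Untreated lines overlapped, with a log2 difference of −0.12 and a 95% interval of −0.28 to 0.04.

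THBD, the cofactor that redirects thrombin to protein C, was close to absent from 1321N1. In LN18 it was 4.40, 4.82 and 4.87 RPKM with EGCG+HC, 5.28, 5.05 and 4.40 RPKM with EGCG, 3.95, 3.31 and 3.46 RPKM with HC, and 2.95, 3.09 and 3.44 RPKM in control. EGCG and EGCG+HC libraries all lay above control, EGCG by a log2 change of 0.50 (SE 0.07, limma adjusted p = 0.000689), under the fold limit, and the mean was 1.55-fold higher. HC overlapped control (0.13, SE 0.08). In 1321N1 each library held 0 to 3 reads of this single-exon gene, too few for a comparison between treatments. The controls held 904 reads in LN18 and 7 in 1321N1, a ratio of 96.5 per counted read (exact 95% interval 46.6 to 241, covering counting error only).

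F2R encodes PAR1, through which thrombin acts on cells. In 1321N1 it was 22.2, 22.0 and 20.5 RPKM with EGCG+HC, 72.2, 71.5 and 69.5 RPKM with EGCG, 12.3, 13.1 and 12.4 RPKM with HC, and 71.5, 74.1 and 74.3 RPKM in control. EGCG overlapped control (log2 change −0.04, 95% interval −0.13 to 0.04), and HC and EGCG+HC lay far below. The fall with HC was −2.45 (SE 0.04, limma adjusted p = 1.66e-08), the 28th lowest of 13408 genes. EGCG+HC was −1.72 (SE 0.04) from control and 0.73 (SE 0.04) above HC.

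In LN18 F2R was 19.1, 19.1 and 19.4 RPKM with EGCG+HC, 35.3, 34.6 and 35.04 RPKM with EGCG, 22.4, 21.9 and 23.1 RPKM with HC, and 33.5, 32.4 and 34.1 RPKM in control. HC libraries were all lower than control, by −0.55 (SE 0.04, limma adjusted p = 4.4e-05), just under the fold limit, and EGCG+HC was −0.77 (SE 0.03) from control. Untreated LN18 cells had less F2R than 1321N1 cells (log2 difference −1.11, SE 0.04, adjusted p = 1.59e-07). F3 and F2R were both lower with HC in 1321N1, and in LN18 F3 was lowered by EGCG while the change of F2R did not pass (0.07, SE 0.03, adjusted p = 0.0614).

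PLAU encodes urokinase. In LN18 it was 61.6, 59.5 and 61.7 RPKM with EGCG+HC, 12.7, 12.4 and 12.6 RPKM with EGCG, 66.8, 67.4 and 69.1 RPKM with HC, and 34.8, 43.0 and 43.99 RPKM in control. The groups did not overlap, and control replicate 1 was the lowest control. PLAU fell with EGCG by a log2 change of −1.61 (SE 0.08, limma adjusted p = 6.79e-06; 39th lowest of 13157 genes), a 3.22-fold lower mean, and rose with HC by 0.73 (SE 0.08, adjusted p = 0.000337). Without control replicate 1 these were −1.71 and 0.63. EGCG+HC cells, with the same EGCG dose, were 4.84-fold above EGCG cells (2.19, SE 0.02) and above control in every library (0.58, SE 0.08).

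In 1321N1 PLAU was low, at 2.16, 2.20 and 2.17 RPKM with EGCG+HC, 1.20, 1.58 and 1.38 RPKM with EGCG, 1.502, 1.67 and 1.40 RPKM with HC, and 2.41, 2.29 and 1.91 RPKM in control. EGCG (−0.43, SE 0.10, limma adjusted p = 0.0155) and HC (−0.34, SE 0.08, adjusted p = 0.00718) lay under control in every library without reaching the fold limit, and EGCG+HC overlapped control. Adding 1 RPKM shrinks these changes too: by the ratio of means PLAU was 1.59-fold lower with EGCG and 1.45-fold lower with HC. LN18 controls had 18.4 times the PLAU of 1321N1 controls (log2 difference 3.70, SE 0.10, adjusted p = 8.34e-08). The response to EGCG was larger in LN18, by −1.18 (SE 0.13, adjusted p = 3.01e-05). The antisense gene C10orf55 shares 915 exonic bases with PLAU, and the library kit keeps no strand; C10orf55 was listed at no more than 0.13 RPKM in LN18. Overlaps with other genes on the opposite strand were shorter for TFPI (118 exonic bases), TFPI2 (44) and F2R (39).

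PLAUR, which holds urokinase on the cell surface, rose most with HC in 1321N1. It was 38.9, 39.5 and 39.7 RPKM with EGCG+HC, 10.8, 12.1 and 12.8 RPKM with EGCG, 63.1, 65.8 and 61.4 RPKM with HC, and 13.05, 12.1 and 12.6 RPKM in 1321N1 control cells. HC gave a 5.05-fold higher mean (log2 change 2.25, SE 0.04, limma adjusted p = 3.38e-08; 144th highest of 13408 genes). EGCG overlapped control (−0.07, 95% interval −0.23 to 0.09), and EGCG+HC was 3.14-fold above control and −0.67 (SE 0.03) from HC. In LN18 the values were 17.1, 15.9 and 16.9 RPKM with EGCG+HC, 10.8, 10.8 and 11.2 RPKM with EGCG, 15.6, 17.0 and 14.9 RPKM with HC, and 10.3, 12.7 and 12.9 RPKM in control. PLAUR was higher in every HC than in every control library of LN18 (0.38, SE 0.09, adjusted p = 0.00785) but under the fold limit. The untreated lines overlapped (log2 difference −0.07, 95% interval −0.27 to 0.13). The ratio of PLAU to PLAUR was 3.39 ± 0.0194 in LN18 controls and 0.176 ± 0.0207 in 1321N1 controls (SD, n = 3 each), so that the ligand exceeded the receptor in RPKM in LN18 and the reverse held in 1321N1.

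PLAT, the activator that works on fibrin, responded to HC alone and to EGCG+HC in opposite directions in LN18. It was 0.931, 1.02 and 1.13 RPKM with EGCG+HC, 3.93, 4.10 and 3.90 RPKM with EGCG, 6.37, 6.74 and 6.12 RPKM with HC, and 2.85, 2.56 and 2.54 RPKM in control. None of the groups overlapped. PLAT rose with HC by a log2 change of 1.02 (SE 0.06, limma adjusted p = 2.01e-05), a 2.42-fold higher mean, and EGCG gave 0.45 (SE 0.05, adjusted p = 0.000198), under the fold limit. The EGCG+HC mean was 2.58-fold lower than control (−0.85, SE 0.07), 3.87-fold lower than EGCG and 6.24-fold lower than HC. In 1321N1 PLAT was 1.67, 1.77 and 1.75 RPKM with EGCG+HC, 3.26, 3.42 and 3.68 RPKM with EGCG, 3.46, 3.402 and 3.49 RPKM with HC, and 3.90, 3.80 and 4.26 RPKM in control. Neither EGCG nor HC passed (both −0.16), and EGCG+HC was −0.87 (SE 0.06) from control. The EGCG response was higher in LN18 than in 1321N1 by 0.61 (SE 0.08, adjusted p = 6.72e-05), and it fell under the fold limit, at 0.57 and 0.58, without 1321N1 control replicate 3 and without 1321N1 EGCG replicate 1.

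SERPINE2, the inhibitor of thrombin and of both activators, rose with HC in both lines. In LN18 it was 7.95, 7.99 and 8.51 RPKM with EGCG+HC, 5.08, 4.61 and 5.05 RPKM with EGCG, 7.43, 7.30 and 7.44 RPKM with HC, and 2.41, 3.31 and 3.15 RPKM in control, with no overlap. It rose with HC by 1.09 (SE 0.09, limma adjusted p = 7.53e-05) and EGCG gave 0.58 (SE 0.09, adjusted p = 0.00112), at the edge of the fold limit. The EGCG mean was 1.66-fold that of control, and adding 1 RPKM shrinks the log2 change at this level. Leaving out LN18 control replicate 2 or 3 or LN18 EGCG replicate 2 took the EGCG change past that limit, to 0.65, 0.62 and 0.62. EGCG+HC was 1.22 (SE 0.09) from control. In 1321N1 the levels were 35.2, 34.5 and 33.8 RPKM with EGCG+HC, 18.4, 18.3 and 18.01 RPKM with EGCG, 39.1, 39.3 and 39.3 RPKM with HC, and 17.2, 18.9 and 18.3 RPKM in control. HC gave 1.07 (SE 0.04, adjusted p = 5.3e-07), while EGCG lay within the control range (0.01, 95% interval −0.10 to 0.11). LN18 controls had less SERPINE2 than 1321N1 controls (log2 difference −2.28, SE 0.09, adjusted p = 4.91e-07). Between untreated lines 6 of 9 genes were called, 4 higher in LN18 and 2 lower, where 42.6% of 13293 genes were called (21.9% higher, 20.7% lower). TFPI and THBD passed the filter only through LN18, and without them 4 of 7 genes were called, 2 higher and 2 lower.

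**Figure D4:**
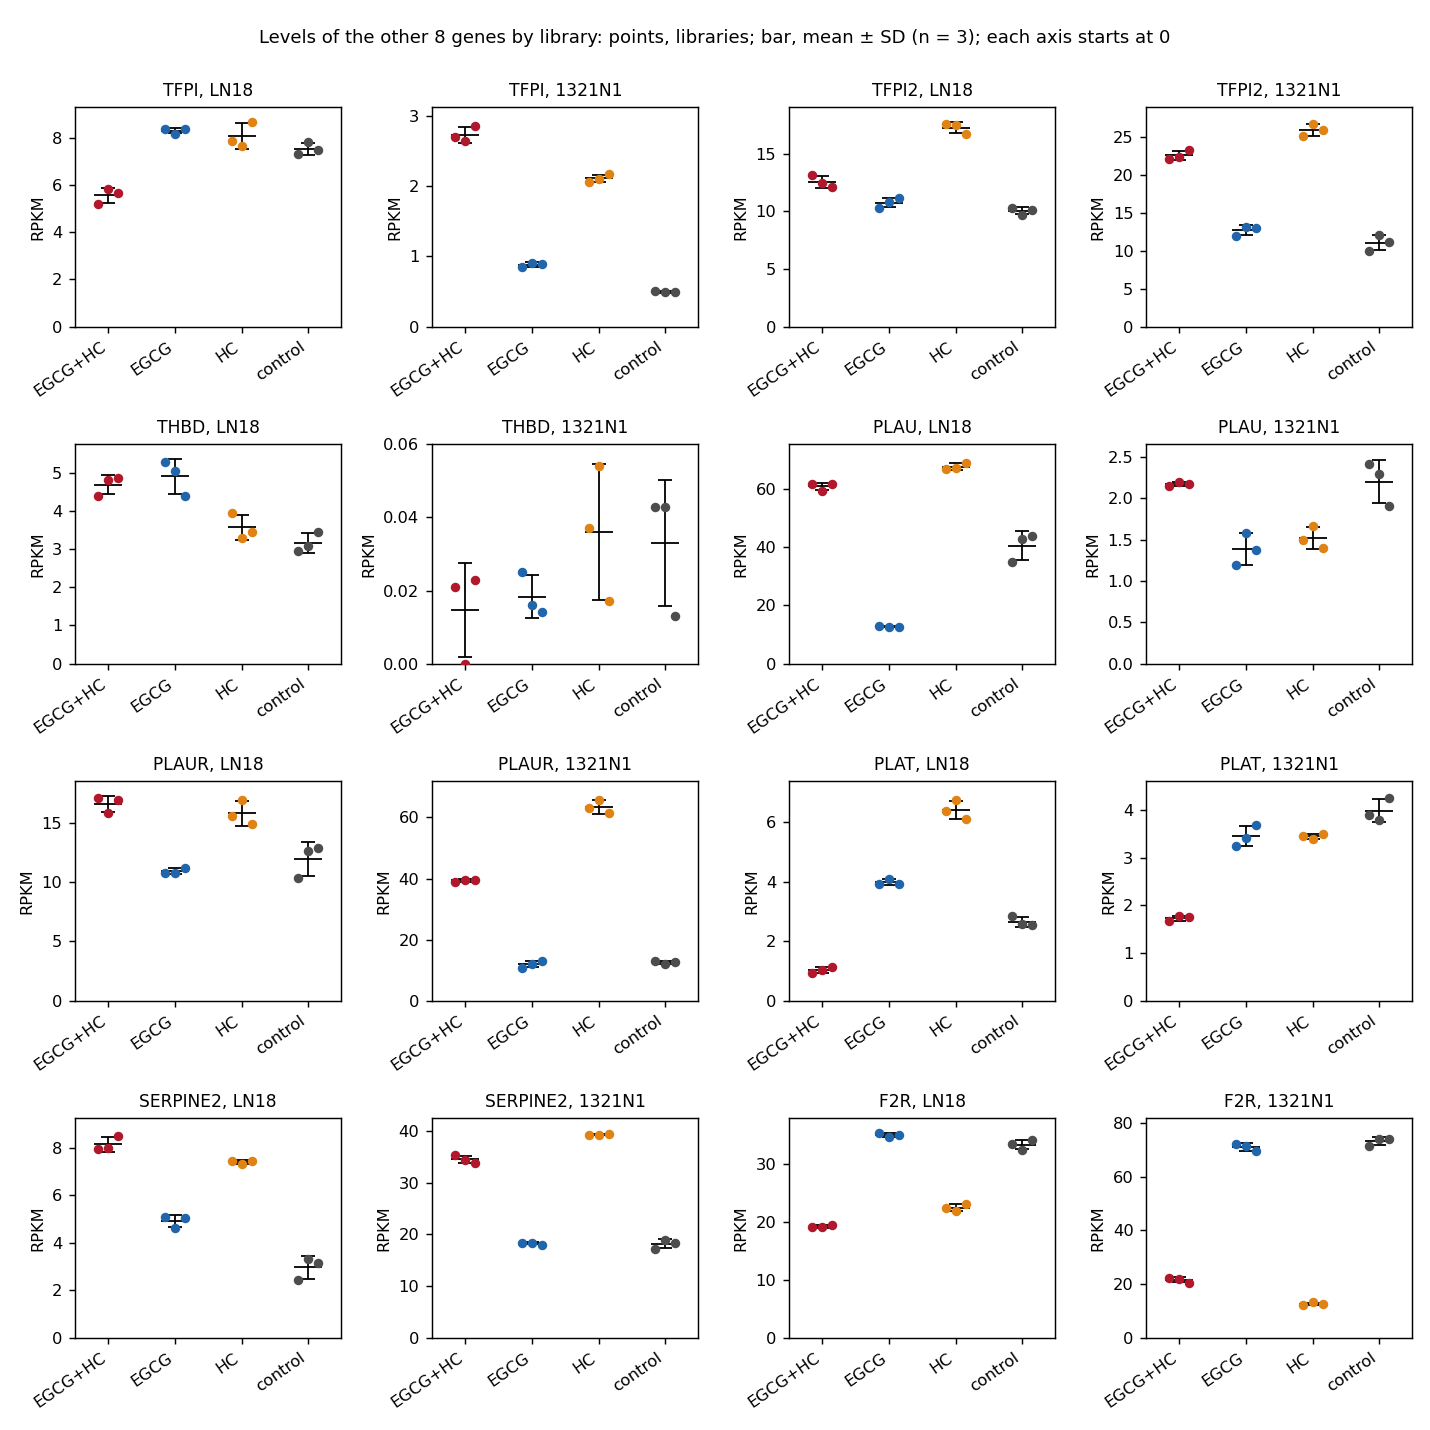
RPKM (vertical axes, each from 0) of the 8 genes other than F3 in LN18 and 1321N1 by treatment; points are libraries and bars the mean ± SD of 3. In LN18 the PLAU panel shows EGCG near 12.6 RPKM and EGCG+HC near 60.9 RPKM, and in 1321N1 HC is the lowest group of the F2R panel and the highest of the PLAUR panel.

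The combined treatment was compared with the sum of the single changes on the log2 scale. In LN18 the sum of the EGCG and HC changes of F3 corresponded to 114 RPKM, and 21.3 RPKM were measured, a difference of −2.37 (SE 0.05). PLAT had 9.10 RPKM from the sum and 1.03 RPKM measured (−2.32, SE 0.08), while PLAU had 21.6 RPKM from the sum and 60.9 RPKM measured (1.46, SE 0.10). F3 and PLAT thus lay far under the sum and PLAU above it in LN18. In 1321N1 F3 had 8.01 RPKM from the sum and 13.8 RPKM measured (0.72, SE 0.08), PLAU was 0.76 (SE 0.11) and F2R 0.77 (SE 0.05) above the sum, and PLAUR was −0.60 (SE 0.08) from it, so that the EGCG+HC change of F3, F2R and PLAUR was smaller than the sum. Past the limits were 4 of 9 genes in LN18 (1 higher, 3 lower, TFPI at −0.59 being the fourth), where 37.6% of 13686 genes were (14.5% higher, 23.1% lower), and 4 of 8 in 1321N1 (3 higher, 1 lower), where 23.1% of 13727 genes were (10.3% higher, 12.8% lower). Against control, EGCG+HC had 4 of 9 genes past the limits in LN18 (1 higher, 3 lower), where 46.3% of 13807 genes were (24.1% higher, 22.2% lower), and 7 of 8 in 1321N1 (4 higher, 3 lower), where 41.1% of 13912 genes were (23.1% higher, 18% lower). TFPI was again above the filter only through EGCG+HC in 1321N1, also against EGCG. Without it 6 of 7 genes (3 higher, 3 lower) were past the limits there against control, and 5 of 7 (3 higher, 2 lower) against EGCG. Against EGCG alone, 5 of 9 genes were past the limits in LN18 (2 higher, 3 lower), with 37% of all genes (19.5% higher, 17.5% lower), and 6 of 8 in 1321N1 (4 higher, 2 lower), with 39.6% (19.1% higher, 20.5% lower). Against HC alone, 2 of 9 were past them in LN18 (0 higher, 2 lower), with 45.4% (19.5% higher, 25.9% lower), and 3 of 8 in 1321N1 (1 higher, 2 lower), with 19.4% (12.2% higher, 7.23% lower). The limits here, and for EGCG+HC below, are those of a call, the limma adjusted p among them. These counts are nevertheless a description and no test of the members, which were chosen with this treatment in view.

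**Figure D5:**
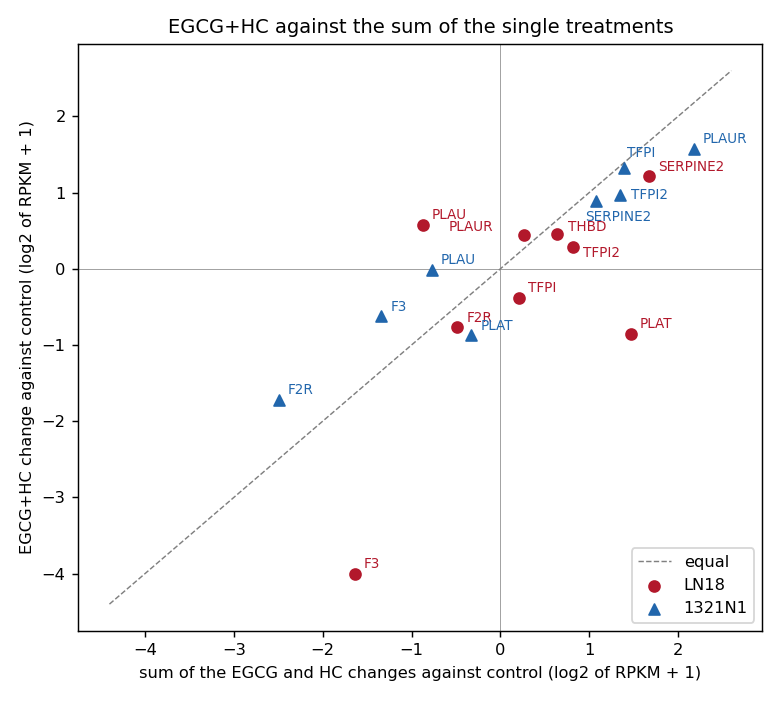
Log2 change of RPKM + 1 with EGCG+HC against control (vertical) over the sum of the EGCG and HC changes against control (horizontal), 1 point per gene, circles for LN18 and triangles for 1321N1, with the dashed line where both are equal. In LN18 F3 (−1.64 from the sum, −4.003 measured) and PLAT (1.47 and −0.85) lie far under the line and PLAU (−0.87 and 0.58) above it.

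Other genes of clotting and plasmin formation were taken from a list of 41, of which 40 were listed in the files. In LN18 EGCG called 5 of 17 tested (2 higher, 3 lower; median log2 change 0.13), where 18.8% of all genes were called and their median was 0.03. HC called 4 of 17 (all higher; median 0.22), where 11.7% of all genes were called and their median was 0.10. Among these calls SERPINB2 with both treatments and HSPG2 with EGCG were above the filter in 1 group only, as was LRP1, which was not called. Without these genes EGCG called 3 of 14 (1 higher, 2 lower; median 0.12) and HC 3 of 15 (3 higher, 0 lower; median 0.18). F2RL2, which encodes PAR3, a receptor of the thrombin receptor family, rose to 18.9 RPKM with EGCG and 32.7 RPKM with HC, against 8.04 RPKM in control (log2 changes 1.14, SE 0.08, and 1.90, SE 0.08, limma adjusted p = 2.3e-05 and 5.37e-06), and it was 7.69 RPKM with EGCG+HC. PLGRKT, a plasminogen receptor, fell with EGCG (3.32 against 9.43 RPKM; −1.27, SE 0.05, adjusted p = 2.48e-06). MRC2, a collagen receptor that binds the urokinase receptor, fell with EGCG (4.56 RPKM) and rose with HC (18.8 RPKM), against 9.21 RPKM in control (−0.88, SE 0.06, adjusted p = 1.63e-05, and 0.96, SE 0.06, adjusted p = 2.84e-05).

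In 1321N1 EGCG called 3 of 15 listed genes (all lower; median −0.15), where 4.97% of all genes were called (1.83% lower) and their median was 0.10. HC called 8 of 15 (3 higher, 5 lower; median −0.46), where 36.6% of all genes were called and their median was −0.01. HSPG2, the heparan sulfate proteoglycan perlecan, fell with EGCG (13.1 against 26.5 RPKM; −0.96, SE 0.09, limma adjusted p = 0.000978), as did MRC2 (12.9 against 31.4 RPKM; −1.22, SE 0.09, adjusted p = 0.000435). HC lowered ANXA2 and S100A10, which form a plasminogen-binding complex (−1.07, SE 0.04, adjusted p = 2.89e-07, and −0.93, SE 0.05, adjusted p = 3.08e-06), as well as HSPG2 (−1.52, SE 0.07, adjusted p = 1.04e-06) and F2RL2 (−0.97, SE 0.08, adjusted p = 3.15e-05). It raised PROCR, the endothelial protein C receptor (56.1 against 31.4 RPKM; 0.82, SE 0.05, adjusted p = 7.07e-06), ANXA5 (0.79, SE 0.06, adjusted p = 1.12e-05) and SERPINI1, neuroserpin (1.20, SE 0.06, adjusted p = 1.71e-06).

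With EGCG+HC, SERPINB2, an inhibitor of urokinase, was 12.7 ± 0.826 RPKM in LN18, against 2.49 ± 0.118 RPKM with EGCG, 1.91 ± 0.095 RPKM with HC and 0.937 ± 0.138 RPKM in control (SD, n = 3 each). In LN18 EGCG+HC cells PLGRKT (−1.16), S100A10 (−1.16) and ANXA2 (−0.74) were lower than control, and in 1321N1 ANXA5 (1.25) was higher and HSPG2 (−2.35), F2RL2 (−2.28), MRC2 (−1.05) and LRP1 (−0.63) were lower. Of the listed genes 5 of 16 were past the limits in LN18 EGCG+HC cells, where 46.3% of all genes were, and 6 of 16 in 1321N1, where 41.1% were. PROC, HSPG2 and SERPINB2 in LN18 and SERPINC1 in 1321N1 were above the filter in 1 group only. Without them 3 of 13 (0 higher, 3 lower) and 5 of 15 (1 higher, 4 lower) were past the limits. Between untreated lines 13 of 16 were called, 4 higher in LN18 (F2RL1 2.69, F8 1.38, ANXA5 0.70, ENO1 0.59) and 9 lower, among them HSPG2 (−3.21), LRP1 (−2.58) and MRC2 (−1.67), where 42.6% of all genes were called. F2RL1, LRP1 and SERPINI1 passed the filter there through 1 line only, and without them 10 of 13 were called. The EGCG response differed between lines for 3 of 16, F2RL2 (1.16) and PROCR (0.63) being higher and PLGRKT (−1.08) lower in LN18, where 17% of all genes were called.

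The genes whose levels ran most like F3 over the 24 libraries, after removal of the mean of each line, were PFKP (r = 0.98), GSS (0.98), SNX1 (0.98), IGF2BP2 (0.98) and KIF14 (0.98) among 7016 genes, as a description in which the 24 points share lines and treatments. PFKP was 9.48 RPKM in LN18 EGCG+HC, 24.5 in EGCG, 46.8 in HC and 43.9 in control. In 1321N1 it was 36.3, 38.3, 37.9 and 52.9 RPKM in the same order. Within LN18 alone the r of these genes ran from 0.987 to 0.996. Within 1321N1 alone r was 0.73 (PFKP), 0.90 (GSS), 0.89 (SNX1), 0.75 (IGF2BP2) and 0.89 (KIF14). Over the 24 libraries none of the other 4 members that met the level filter was close: F2R had r = 0.37, TFPI2 −0.13, PLAUR −0.29 and SERPINE2 −0.53. Within the 12 libraries of 1321N1 alone F2R ran with F3 (r = 0.93) while TFPI2, PLAUR and SERPINE2 ran against it (−0.91, −0.91 and −0.89), and in LN18 the values were 0.55, 0.09, −0.40 and −0.57.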

How the data were processed

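Paired-end poly(A) reads were trimmed by the authors, inspected in FastQC and mapped to GRCh37 (hg19), and RPKM per gene and library from CLC Genomics were deposited by the authors. How genes were annotated and counted was not given in the sources used here. Libraries were grouped by their sample labels, and doses came from the paper. Gene names that a spreadsheet had turned into dates (25 to 27 per group) were left out. After adding 1 and taking log2, RPKM values were fitted in limma 3.58.1 (R 4.3.3) with a trended empirical Bayes variance and Benjamini-Hochberg adjustment over all genes. Genes averaging under 1 RPKM over the fitted libraries were filtered out. A comparison of 2 groups used their 6 libraries, and the EGCG response difference and the sum of single treatments on 12. Counted reads were recovered from low values of single-exon genes, 63.2 to 92.6% of which lay within 0.1 of a whole read, lowest in 1321N1 EGCG replicates 2 and 3. Tables and figures used Python 3.11.15, pandas 2.3.3 and matplotlib 3.10.9. Of the fits, only that of LN18 EGCG against control was tried on simulated data, with known changes and normal noise on the log2 scale. Gene coordinates and overlaps came from GENCODE on GRCh37. The members and lists were chosen with earlier results of these data known, as was the rule for named genes, which takes all members and, of the pathway list, up to 4 higher and 4 lower genes past the limits whose higher group averaged 5 RPKM or more. Of the items this rule takes, 1 is not reported here. Alternatives were a pseudocount of 0.1, no filter, quantile normalization, rescaling over non-mitochondrial genes, no fold limit, a replicate block, 1 fit of all 24 libraries, and leaving out each library. That the 3 libraries of a group came from separate cultures rests on the labels.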

Additional observations from a re-analysis of the deposited data

Results flagged for a closer look

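The response to the same dose of EGCG differed between the lines for 3 genes, by the interaction term of limma over 12 libraries. F3 changed by −1.17 more on the log2 scale in LN18 than in 1321N1 (SE 0.07, adjusted p = 3.29e-07), with all 3 EGCG libraries under all 3 control libraries in both lines. PLAU differed by −1.18 (SE 0.13, adjusted p = 3.01e-05), again lower in every EGCG library of both lines. PLAT differed by 0.61 (SE 0.08, adjusted p = 6.72e-05), with all 3 LN18 EGCG libraries above control and all 3 1321N1 EGCG libraries under it, and neither single change past the fold limit. Serum and grade differ with the line and cannot be told apart from it.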

How the results depend on the processing

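Over 147 results and 2103 alternative values, 15 log2 changes turned sign, 11 in tested and 4 in described comparisons, and 0 of them were past the limits. Without a limit on the fold, members called were 6 of 9 (LN18 EGCG), 2 of 7 (1321N1 EGCG) and 7 of 9 (EGCG response difference). With EGCG+HC they were 9, 8 and 8 of 9 in LN18 (against control, EGCG and HC) and 8 of 8 in 1321N1 (against HC). Beyond the sum they were 7 of 9 in LN18 and 7 of 8 in 1321N1. The 7 of the EGCG response difference include TFPI and THBD, above the filter only through LN18. Pathway genes were then 14 and 11 of 17 (LN18 EGCG and HC), 7 and 13 of 15 (1321N1 EGCG and HC) and 6 of 16 (EGCG response difference). With EGCG+HC against control, EGCG and HC they were 11 of 16, 12 of 15 and 15 of 17 in LN18. In 1321N1 they were 12 of 16, 9 of 16 and 13 of 15. Beyond the sum they were 12 of 17 in LN18 and 13 of 15 in 1321N1. The limit is by construction what was removed. The shares of all genes so called were 71.3 and 55.4% (LN18 EGCG and HC) and 40.1 and 76.6% (1321N1 EGCG and HC). In the EGCG response difference the share was 54.3%. With EGCG+HC against control, EGCG and HC it was 84.0, 82.3 and 81.5% in LN18 and 80.9, 79.0 and 70.4% in 1321N1. Beyond the sum it was 72.8% in LN18 and 61.1% in 1321N1. With 0.1 RPKM added in place of 1, members called were 4 (LN18 EGCG), 1 (1321N1 EGCG) and 6 (EGCG response difference) and pathway genes with LN18 HC 7, low genes being shrunk less. Quantile normalization left 2 pathway genes with LN18 HC, and no filter gave 8 for 1321N1 EGCG+HC against EGCG; the cause was not tested. Leaving out 1 library gave 3 to 7 pathway genes with LN18 HC (7 without LN18 HC replicate 2), 2 to 3 members with LN18 EGCG and 2 to 4 in the EGCG response difference.

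Under quantile normalization the LN18 HC changes of F3, TFPI and THBD were 0.062, −0.043 and −0.072, with the median of all genes shifted by −0.13 and the lower share of calls at 37.5% against 19.2%, while members called were again 4 higher and 0 lower. The lower share was 53.3% against 36.9% of calls with 1321N1 EGCG, and 54.5% against 67.1% in the EGCG response difference. SERPINE2 with 1321N1 EGCG was −0.056 under quantile normalization and −0.019 after rescaling, and −0.027 to 0.036 when 1 library was left out. PLAUR was −0.12 to 0.024 between untreated lines without 1 library. For PLAUR in the EGCG response difference it was 0.056 under quantile normalization and −0.13 to 0.015 without 1 library. In described comparisons PLAUR in LN18 EGCG+HC against HC was −0.048 after rescaling, THBD beyond the sum in LN18 0.020 under quantile normalization, and PLAU in 1321N1 EGCG+HC against control 0.037 and 0.012 without 1321N1 control replicates 1 and 2. The replicate block left all 147 results on their side of the limits, for instance 2 members with LN18 EGCG and 6 with 1321N1 HC. Replicate numbers did not pair the samples: in 0 of 28 pairs of groups were all correlations of same-numbered libraries above 0.1 (−0.12 to 0.154). Depth limits THBD in 1321N1 (0 to 3 reads) and PLAU there (57.9 to 167 reads).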
